A study of Mus musculus with 8 samples.

Results

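The genes described here are those of 7 solute carrier families that move amino acids and their relatives across membranes. They were chosen by symbol alone, as every gene named Slc1a, Slc3a, Slc6a, Slc7a, Slc36a, Slc38a or Slc43a followed by a number. This took 66 of the 45706 genes in the table, 62 of them transporter genes and 4 named as opposite-strand or antisense neighbours of one (Slc7a6os, Slc6a19os, Slc36a1os and Slc36a3os). RNA-seq measured them in muscle stem cells, from which skeletal muscle regenerates, taken from the hindlimbs of wild-type (WT) C57BL/6 female mice 8 to 12 weeks old. The sort kept cells with α7-integrin and CD34 and removed cells with CD45, CD11b, Sca1 or CD31. The 5 fresh libraries were made from cells straight after the sort, and the 3 cultured libraries from cells kept for 48 h on a hydrogel of 12 kPa. The growth medium listed in the labels held 20% fetal bovine serum. Fresh replicates 1 to 3 were sequenced in run 1, and fresh replicates 4 and 5 in run 2, together with all cultured libraries. The comparison asked how the transcripts of each transport system differ after 48 h outside the animal.

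Amino acid transporters are grouped into systems by what they carry and how. The heavy chain Slc3a2 (CD98) brings several Slc7 light chains to the plasma membrane, where each exchanges one amino acid for another: large neutral amino acids such as leucine (system L), cystine for glutamate (system xc-), or cationic for neutral amino acids (system y+L). Other families take up amino acids with sodium or protons, and so fill the pool that the exchangers draw on, or release amino acids from lysosomes. The amino acids that enter feed protein synthesis and are sensed by the kinase complex mTORC1, and a shortage of them raises the transcription factor ATF4, which binds at many transporter and amino acid synthesis genes.

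Total counts per library lay between 13919440 and 20068154, and levels are given as CPM, the count of a gene scaled to a common library size. At least 1 count was seen for 32710 to 34689 genes in the run-1 fresh libraries, 20480 to 20898 in the run-2 fresh libraries and 15415 to 17852 in the cultured ones. The labels do not say that each library had its own animal or culture, so the p-values rest on the spread between libraries, which may be technical. Markers of pericytes, Schwann cells, fibro-adipogenic cells and immune cells were present in the fresh libraries, and the sum of each list was lower in culture. Not every marker was lower by the test given below. It called 5 of 8 pericyte, 8 of 8 Schwann cell, 4 of 6 fibro-adipogenic and 2 of 4 tested immune markers lower, beside 18% of all genes. Of the muscle stem cell markers, 7 of 9 were called lower as well. None was called higher, but the log2 fold changes of the immune markers reached 3.03. The summed level of 8 pericyte and smooth muscle markers was 279 CPM in fresh replicate 1, 1352 to 2308 CPM in the other fresh libraries and 0.211 to 12.5 CPM in culture, where 2 of the 8 (Abcc9 and Kcnj8) were at 0 in every library. Of 8 Schwann cell markers the sum was 475 to 2137 CPM in fresh and 13.2 to 33.9 CPM in cultured libraries, with Sox10, S100b and Cdh19 at 0 in culture. The fibro-adipogenic sum was 877 to 1202 CPM in fresh and 7.59 to 19.0 CPM in cultured libraries (1 of 6 markers, Ly6a, at 0 in culture), and the immune sum 22.2 to 70.2 and 0.0510 to 5.71 CPM (4 of 6 at 0). Endothelial markers summed to 10.2 to 34.3 CPM in fresh and 0.257 to 38.2 CPM in cultured libraries (4 of 7 at 0), and muscle fibre markers to 103 to 129 and 126 to 255 CPM (0 of 7 at 0). The sum of 9 muscle stem cell markers, Pax7 among them, was 4415 to 5655 CPM in fresh and 1056 to 1181 CPM in cultured libraries. In such bulk libraries, fewer cells of a type and less RNA per cell cannot be told apart.

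Of the 66 genes, 51 had enough counts to be tested, and 15 did not. After 48 h, 6 of the tested genes were higher (Slc7a11, Slc1a5, Slc7a1, Slc7a5, Slc38a1 and Slc6a6) and 15 were lower. Unless DESeq2 is named, every adjusted p here comes from the quasi-likelihood test of edgeR with Benjamini-Hochberg adjustment, and genes with a value under 0.05 are called. The 21 called genes are 41.2% of the 51, beside 26.9% of all 19054 genes tested. By direction, 8.87% of all genes tested were called higher and 18% lower. With no scaling factors between libraries, all genes split into 2452 higher and 2857 lower rather than 1691 and 3431, and these families into 8 and 15. Without the factors, log2 fold changes of all genes were higher, at the median by 0.41. The 21 called genes were all transporter genes, and the 4 opposite-strand or antisense genes were not called. The median log2 fold change of the 51 was -0.80, or -0.83 with genes at 0 in culture set to their bound, against -0.21 for all genes. All cultured libraries lay above all fresh ones for 8 of the 51 genes and below them for 18, which was so for 13.7% and 26.1% of all genes, or 39.9% together. A gene that passed the filter on low counts only through one group had to differ between groups, so these counts describe the families and support no statement about them. The call held in all 16 alternative settings for 9 genes: Slc1a5, Slc7a1, Slc7a5 and Slc7a11 among the higher ones and Slc7a2, Slc7a8, Slc43a1, Slc43a2 and Slc43a3 among the lower ones. In run 2 alone, where 38 genes of the families were tested, 5 were called higher and 9 lower. DESeq2 called 25 of the 49 genes of the families it tested, 8 higher and 17 lower. The 26.9% of all genes is from the main fit and is no background for either setting.

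**Figure D1:**
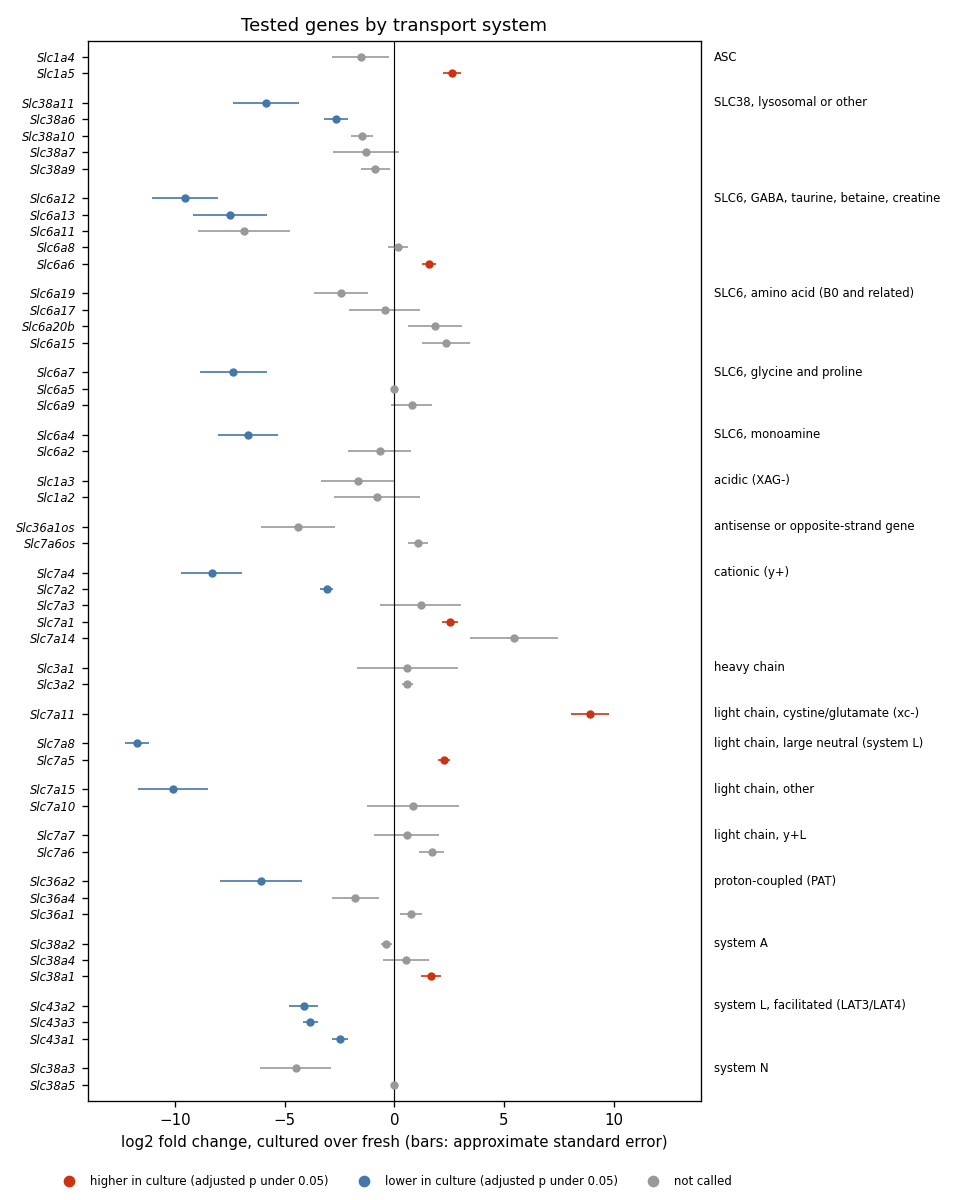
Log2 fold change of cultured over fresh cells (x axis) for tested genes, grouped by transport system (y axis), with bars for the approximate standard error and colours for genes called higher, called lower or not called. Slc7a8 lies farthest to the left at -11.74 and Slc7a11 farthest to the right at 8.91, and the points of Slc6a5 and Slc38a5 at 0 have no counts in any run-2 library, so they give no estimate.

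Among the carriers of large neutral amino acids, Slc7a5 (LAT1) rose and the other 3, Slc7a8 (LAT2), Slc43a1 (LAT3) and Slc43a2 (LAT4), fell. Slc7a8 (ENSMUSG00000022180, chr14:54722209-54781946 in mm10, minus strand), a light chain of Slc3a2 in system L, had 217, 226, 287, 220.2 and 183 CPM in fresh replicates 1 to 5. In cultured replicates 1 to 3 it had 0, 0.103 and 0.0510 CPM, which was 3 counts in all. It thus went from a well-detected transcript in every fresh library to nearly none in every cultured one (log2 fold change -11.74 ± 0.54, ± SE; adjusted p = 1.36e-05). The ratio of run-2 fresh to cultured levels was 3901, with a counting interval of 1334 to 18922 that covers counting error only. Without cultured replicate 2, which held 2 of the 3 counts, the ratio was 7785. Slc7a5 (ENSMUSG00000040010, chr8:121881150-121907694, minus strand), the light chain of the other system L exchanger, had 142, 104, 94.5, 69.7 and 62.3 CPM in the fresh libraries and 325, 358 and 279 CPM in the cultured ones. The lowest cultured library lay above the highest fresh one, and the rise was 2.28 ± 0.27 on the log2 scale (adjusted p = 0.000868).

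Slc43a1 and Slc43a2, carriers that let large neutral amino acids pass without exchange, fell with Slc7a8. Slc43a1 (chr2:84838850-84863594, plus strand) had 133, 109, 135, 97.4 and 76.2 CPM in fresh and 8.80, 17.9 and 19.9 CPM in cultured libraries (log2 fold change -2.48 ± 0.37; adjusted p = 0.00223). Slc43a2 (chr11:75531694-75577575, plus strand) had 176, 148, 85.0, 121 and 130.0 CPM in fresh and 13.6, 5.61 and 2.09 CPM in cultured libraries (-4.14 ± 0.67; adjusted p = 0.00352). For both, the highest cultured library stayed far below the lowest fresh one, although Slc43a2 varied widely within culture, and its fold change was -4.96 without cultured replicate 1. Slc43a3 (chr2:84936579-84958509, plus strand), which lies near Slc43a1 on chromosome 2 and is known as a purine nucleobase carrier rather than an amino acid carrier, had 712, 678, 1189, 592 and 508 CPM in fresh and 40.0, 49.6 and 26.1 CPM in cultured libraries. It fell by 3.83 ± 0.35 on the log2 scale (adjusted p = 0.000268). All 3 Slc43 genes were thus lower in culture, with no overlap between groups. Of all genes tested, 18% were called lower, and 26.1% had every cultured library below every fresh one.

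Levels per kb of exon use the union of annotated exons and not the transcripts expressed, so comparisons between genes on this scale are approximate. On it, the 4 carriers of large neutral amino acids together had 79.6 to 122 CPM per kb in fresh libraries. In cultured libraries they had 78.9 to 100.4 CPM per kb, so that the sums overlapped. Their makeup did not overlap. Slc7a5 made up 31.2, 26.2, 22.2, 20.5 and 21.1% of the sum in fresh replicates 1 to 5 and 96.8, 96.3 and 95.3% in cultured replicates 1 to 3. Of the 2 light chains alone, Slc7a5 made up 29.9 to 46.9% in fresh libraries and 99.98% or more in cultured ones. These shares were formed after the levels had been seen, so they are a description with no test.

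**Figure D2:**
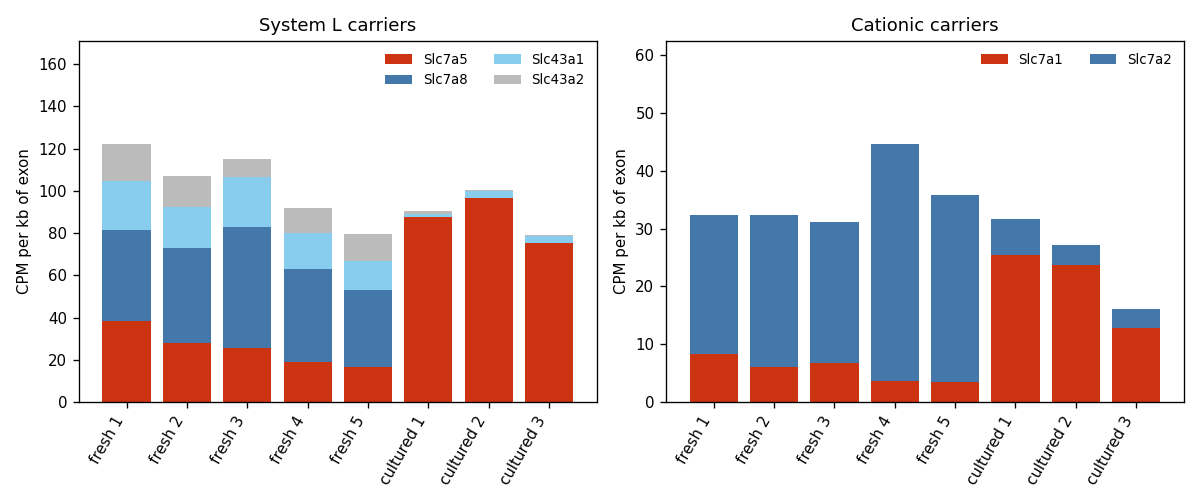
Stacked levels of the 4 carriers of large neutral amino acids (left) and of the cationic carriers Slc7a1 and Slc7a2 (right) in CPM per kb of exon (y axis), with 1 bar for each fresh and cultured library. Slc7a5 takes up 20.5 to 31.2% of the left bars in fresh and 95.3 to 96.8% in cultured libraries, and Slc7a1 takes up 8.34 to 25.7% and 79.6 to 87.4% of the right ones.

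Neither heavy chain was called. Slc3a2 (chr19:8706882-8723369, minus strand) had 129, 139.6, 183, 77.7 and 94.98 CPM in fresh and 109, 141 and 141 CPM in cultured libraries, with the groups overlapping (log2 fold change 0.59 ± 0.26; adjusted p = 0.13). Its direction depended on which fresh libraries were used, and its call on the scaling. The fold change was -0.14 against run-1 fresh libraries alone and, with no scaling factors, 1.02 and called higher (adjusted p = 0.0332). Per kb, the summed level of the 6 light chains that pair with it (Slc7a5, Slc7a6, Slc7a7, Slc7a8, Slc7a10 and Slc7a11) was 1.78 to 3.01 times that of Slc3a2 in fresh and 2.28 to 3.13 times in cultured libraries. Slc3a1 (rBAT), the heavy chain of the cystine and dibasic amino acid exchanger of kidney and gut, had 2.51, 1.80, 2.28, 2.65 and 13.4 CPM in fresh libraries and 0, 36.4 and 0 CPM in cultured ones (0.59 ± 2.29; adjusted p = 0.898). A single cultured library held all of its counts in culture. Without cultured replicate 2, when no cultured count was left, the fitted fold change was -10.10 and was called lower (adjusted p = 0.00757), and without fresh replicate 4 it was -0.07. Of the exon length of Slc3a1, 26.5% overlaps exons of Prepl on the opposite strand, and reads of the 2 genes cannot be told apart there unless strand was used in counting, which the sources used here do not give. The same holds for smaller stretches of called genes: 13.3% of the exon length of Slc7a4 (P2rx6), 9.18% of Slc43a2 (Gm45606), 6.95% of Slc7a2 (Gm26584) and 1.38% of Slc6a6 (Gm44981).

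Slc7a11 (xCT, ENSMUSG00000027737, chr3:49892526-50443614, minus strand), the light chain that imports cystine for glutathione synthesis, showed the largest rise of the tested genes in these families. It had 1.77, 1.47, 3.30, 0.126 and 0.195 CPM in fresh and 39.4, 87.5 and 115 CPM in cultured libraries. Every fresh library was at 3.30 CPM or below, the run-2 libraries lowest, while every cultured library had at least 39.4 CPM. The log2 fold change was 8.91 ± 0.87 (adjusted p = 0.000338), and it was 5.28 against the run-1 fresh libraries alone (adjusted p = 0.00192). The difference between the fresh runs was not called for Slc7a11 by edgeR, but was by DESeq2, at -3.78 for run 2 over run 1 (adjusted p = 0.00215).

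The promoter of Slc7a11 is shown because it holds the motif TGATGNAA, the composite C/EBP and ATF element of amino acid response genes, in both orientations. The sequence covers the first 250 bases of the RefSeq window for GRCm38.p6, chr3:50443614-50443863, minus strand, written 5′ to 3′ and ending at the transcription start, with both matches in capitals. The first match, TGATGCAA, begins 66 bases before the start, and the other, TTGCATCA, is its reverse complement.
Slc7a11 promoter: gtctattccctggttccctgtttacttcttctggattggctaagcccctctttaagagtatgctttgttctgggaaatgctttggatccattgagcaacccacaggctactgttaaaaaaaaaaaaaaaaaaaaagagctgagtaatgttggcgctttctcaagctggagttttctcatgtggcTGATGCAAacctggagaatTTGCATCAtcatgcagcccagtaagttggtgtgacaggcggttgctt
The motif was searched on both strands in windows of 300 bases, 250 before and 50 after each start. Of the 66 genes, 48 were matched by symbol to this RefSeq table with 69 windows, and 3 held the motif, Slc7a11, Slc1a4 and Slc7a7. It was in 4 of these 69 windows, and in 1304 of all 32851 windows (3.97%). The 2 windows of Slc7a7 overlap and share 1 match. Enrichment was not tested. Slc1a4 (ASCT1) has 1 match, which begins 4 bases before its start (chr11:20332694-20332733, minus strand), shown with the match in capitals for comparison, because its transcript was not called.
Slc1a4 window: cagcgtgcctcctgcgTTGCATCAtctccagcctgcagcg
Of the 6 genes called higher, 2 were in the table, and of the 15 called lower, 9. A match is a description of the letters and not of a bound site.

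The y+L light chains, which release cationic amino acids in exchange for neutral ones, were not called. Slc7a6 had 15.4, 16.3, 18.2, 6.38 and 12.9 CPM in fresh and 27.8, 45.5 and 20.4 CPM in cultured libraries. All cultured values lay above all fresh ones, but its log2 fold change of 1.70 ± 0.56 did not pass the test (adjusted p = 0.0527). It passed with DESeq2 (adjusted p = 0.00606) and with no scaling factors (adjusted p = 0.0273), and with the replicate block its fold change was 0.83 (adjusted p = 0.323). Slc7a7, the other y+L light chain, had 18.2, 14.4, 13.9, 4.36 and 1.04 CPM in fresh and 0.0527, 1.60 and 10.3 CPM in cultured libraries, with the groups overlapping (adjusted p = 0.831). Slc7a6os, which neighbours Slc7a6 and is named for the opposite strand, went from 17.5 ± 8.77 to 48.7 ± 0.878 CPM (mean ± SD, n = 5 and 3, as for all such pairs) with every cultured library above every fresh one (1.07 ± 0.46; adjusted p = 0.12).

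The cationic carriers of system y+, which take up arginine and lysine, also moved in opposite directions. Slc7a1 (CAT1, chr5:148327410-148399904, minus strand), the widely expressed member, had 95.7, 70.1, 78.6, 42.9 and 39.8 CPM in fresh and 294, 273 and 148 CPM in cultured libraries. Slc7a2 (CAT2, chr8:40862396-40922308, plus strand) had 219, 239, 222, 374 and 295 CPM in fresh and 56.4, 31.2 and 30.1 CPM in cultured libraries. Neither overlapped between groups: Slc7a1 rose by 2.53 ± 0.36 (adjusted p = 0.0018) and Slc7a2 fell by 3.09 ± 0.31 (adjusted p = 0.000404) on the log2 scale. Per kb of exon, Slc7a1 made up 8.34 to 25.7% of the 2 in fresh and 79.6 to 87.4% in cultured libraries. Their summed level was 31.1 to 44.6 CPM per kb in fresh and 16.2 to 31.7 CPM per kb in cultured libraries, so that the ranges overlapped only at their ends. Slc7a4, a related gene with no established transport activity, had 1.60, 2.00, 0.660, 3.29 and 1.37 CPM in fresh libraries and no count in culture. It was at least 45.3-fold lower than in the run-2 fresh libraries (adjusted p = 0.00651), or 26.5-fold without fresh replicate 4. Slc7a3 (adjusted p = 0.679) and Slc7a14 (adjusted p = 0.0735) were not called, though Slc7a14 was with DESeq2 (adjusted p = 0.0246). Slc7a14 was at 4.74 CPM in cultured replicate 1 and at 0.206 and 0.255 CPM in the others.

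Slc1a5 (ASCT2, chr7:16781340-16798274, plus strand), the sodium-dependent exchanger that brings in glutamine, had 27.5, 43.3, 47.1, 37.9 and 18.1 CPM in fresh and 153, 161 and 204 CPM in cultured libraries. The lowest cultured library lay far above the highest fresh one. The rise was 2.62 ± 0.42 on the log2 scale (adjusted p = 0.00318), or 3.30 without fresh replicate 4. Slc1a4 (ASCT1), the other carrier of system ASC, which moves alanine, serine and cysteine, had 13.3, 18.5, 13.6, 6.76 and 15.4 CPM in fresh and 8.91, 2.52 and 0.0510 CPM in cultured libraries. Its values spread widely in culture and overlapped the fresh ones, and the log2 fold change of -1.53 ± 1.30 was not called (adjusted p = 0.423). It was -3.03 without cultured replicate 1 and -0.84 without fresh replicate 5. The summed level of the 2 per kb was 8.26 to 15.1 CPM per kb in fresh and 39.0 to 48.9 CPM per kb in cultured libraries, of which Slc1a5 made up 52.6 to 84.1% and 94.2 to 99.97%. The 5 carriers of acidic amino acids (Slc1a1, Slc1a2, Slc1a3, Slc1a6 and Slc1a7), known from brain and kidney, were low. Of these 5, 2 were tested and none was called, and only Slc1a6 exceeded 4 CPM in any library, at 5.24 CPM in fresh replicate 1.

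System A accumulates small neutral amino acids together with sodium, and 2 of its 3 carriers were well detected. Slc38a2 (SNAT2, chr15:96687392-96699730) had 513, 449, 719, 543 and 559 CPM in fresh and 354, 450.1 and 479.7 CPM in cultured libraries. The groups overlapped, and the log2 fold change of -0.37 ± 0.25 was not called (adjusted p = 0.324) and was 0.07 with no scaling factors. Slc38a1 (SNAT1, chr15:96571418-96642913, minus strand) had 72.5, 61.8, 62.5, 36.1 and 50.9 CPM in fresh and 72.9, 223 and 115 CPM in cultured libraries. It rose by 1.65 ± 0.46 (adjusted p = 0.0284), although cultured replicate 1 lay just above fresh replicate 1. The call for Slc38a1 was lost in run 2 alone (adjusted p = 0.0931), against run-1 fresh libraries alone (0.0705), and without fresh replicate 4 (0.175), fresh replicate 5 (0.0936) or cultured replicate 2 (0.0518). With the replicate block the call was lost too (0.91; adjusted p = 0.155). Per kb, Slc38a1 made up 3.29 to 6.76% of Slc38a1 and Slc38a2 in fresh and 9.55 to 20.3% in cultured libraries. Slc38a4, the third carrier of system A, averaged 4.01 and 6.49 CPM in fresh and cultured libraries and was not called (adjusted p = 0.762).

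**Figure D3:**
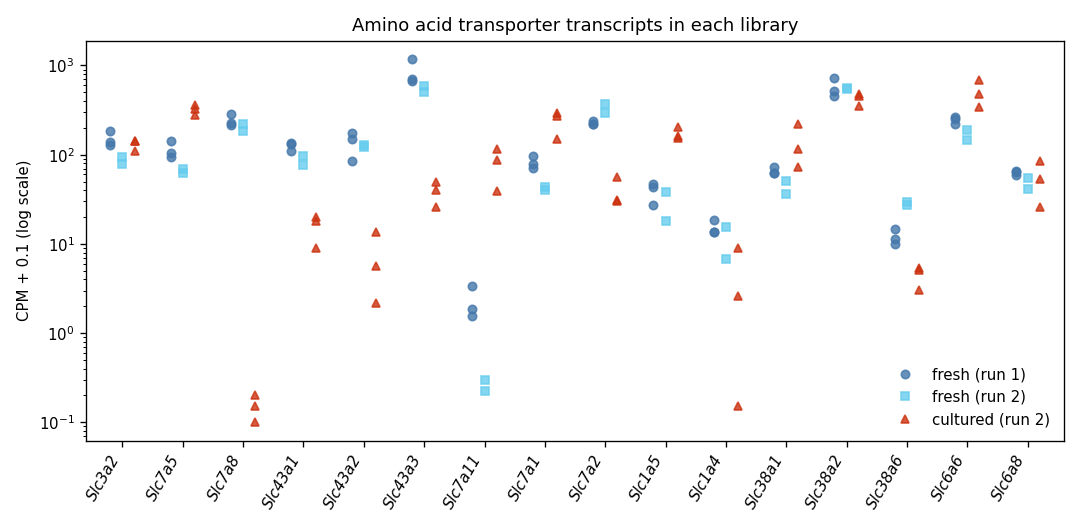
CPM plus 0.1 on a log axis (y) for 16 of the transporter genes (x axis), with 1 point for each library of fresh cells in run 1 (circles), fresh cells in run 2 (squares) and cultured cells (triangles). Slc7a8 goes from 183 to 287 CPM in fresh libraries to at most 0.103 CPM in culture and Slc7a11 from at most 3.30 CPM to at least 39.4 CPM, while the points of Slc3a2 and Slc38a2 overlap.

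In system N, which carries glutamine and histidine, Slc38a3 had 17.0, 11.5, 9.30, 8.21 and 27.1 CPM in fresh and 0, 2.26 and 0.0510 CPM in cultured libraries. All cultured values lay below all fresh ones, but the log2 fold change of -4.50 ± 1.62 was not called (adjusted p = 0.0696), though DESeq2 called it (adjusted p = 0.00870). Among the Slc38 genes of lysosomes or other membranes, Slc38a6 (chr12:73286779-73354049, plus strand) had 14.5, 11.2, 9.90, 26.8 and 29.1 CPM in fresh and 5.22, 4.94 and 2.90 CPM in cultured libraries. It fell by 2.68 ± 0.55 on the log2 scale (adjusted p = 0.00806), but lost the call in run 2 alone (adjusted p = 0.0506) and against run-1 fresh libraries alone (-1.38; adjusted p = 0.132). The replicate block also ended the call of Slc38a6 (-1.47; adjusted p = 0.16). Slc38a9, the lysosomal arginine sensor that signals to mTORC1, had 17.7, 25.1, 36.3, 18.0 and 27.7 CPM in fresh and 21.2, 4.32 and 12.1 CPM in cultured libraries (-0.86 ± 0.67; adjusted p = 0.376), with the groups overlapping. Slc38a10 was below all fresh libraries in every cultured one, at 25.5 and 9.32 CPM on average, and was not called (-1.46; adjusted p = 0.0601), but was with DESeq2 (adjusted p = 0.00651). Slc38a7, a lysosomal glutamine exporter, was not called either, at 7.35 and 3.83 CPM (adjusted p = 0.57).

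Of the proton-coupled carriers, Slc36a1 (PAT1), which exports small amino acids from lysosomes, had 19.2, 19.8, 16.7, 7.45 and 14.7 CPM in fresh and 19.4, 15.9 and 20.3 CPM in cultured libraries. The groups overlapped, and the log2 fold change was 0.74 ± 0.51 (adjusted p = 0.317). Slc36a4 had 17.5, 28.4, 30.6, 25.9 and 18.9 CPM in fresh and 0.211, 11.1 and 8.20 CPM in cultured libraries, all below the fresh ones, and was not called (-1.78 ± 1.08; adjusted p = 0.26).

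Of the Slc6 family, which carries neurotransmitters, osmolytes and amino acids with sodium and chloride, the taurine carrier Slc6a6 (TauT, chr6:91684053-91759066, plus strand) was the most abundant gene in both groups. It had 254, 268, 221, 188 and 145 CPM in fresh and 684, 477 and 338 CPM in cultured libraries. The lowest cultured library lay above the highest fresh one, and the rise was 1.59 ± 0.32 on the log2 scale (adjusted p = 0.00762). Its call was lost without fresh replicate 5 (1.42; adjusted p = 0.0595) and with the replicate block (0.96; adjusted p = 0.0641). The creatine carrier Slc6a8 had 58.8, 63.2, 65.3, 41.4 and 55.4 CPM in fresh and 25.7, 53.9 and 84.8 CPM in cultured libraries. Its cultured values spanned the whole fresh range, and the log2 fold change of 0.18 ± 0.46 (adjusted p = 0.823) turned to -0.25 without cultured replicate 3, -0.05 with no run term and -0.11 against run-1 fresh libraries alone. The glycine carrier Slc6a9 averaged 7.08 and 8.48 CPM and was not called (adjusted p = 0.578).

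The 9 remaining called genes, with means under 10 CPM, were all lower in culture. Of these, 7 had no count in any cultured library, where 3 counts over the group would be 0.0517 CPM. The betaine and GABA carrier Slc6a12 had 5.41, 3.67, 1.86, 7.71 and 3.19 CPM in fresh libraries and was at least 106-fold lower in culture (adjusted p = 0.0054), or 61.8-fold without fresh replicate 4. Slc7a15, a light chain gene, had 4.10, 4.34, 2.64, 2.46 and 13.5 CPM and was at least 153-fold lower (adjusted p = 0.00542), and this bound was 47.7-fold when fresh replicate 5 was left out and 261-fold without fresh replicate 4. All 7 genes were detected in every fresh library and in none of the cultured ones. The GABA carrier Slc6a13 had 4.16, 4.88, 3.36, 2.40 and 0.195 CPM in fresh libraries and was at least 25.4-fold lower in culture (adjusted p = 0.0175). Leaving out fresh replicate 5 raised this bound to 46.4-fold, and the call was lost without fresh replicate 4 (adjusted p = 0.0736). The proline carrier Slc6a7 had 1.60, 3.87, 1.56, 0.379 and 1.95 CPM and was at least 22.3-fold lower (adjusted p = 0.013), and this bound was 7.33-fold when fresh replicate 5 was left out and 37.8-fold without fresh replicate 4. The serotonin carrier Slc6a4 had 0.627, 0.668, 1.32, 1.26 and 0.195 CPM and was at least 14.3-fold lower (adjusted p = 0.0128), or 24.4-fold without fresh replicate 5. Fresh replicate 4 held 20 of its 23 run-2 fresh counts, and the 3 left without it are too few for a bound. Slc7a4, given above with the cationic carriers, also belongs to the 7.

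The other 2 of the 9 kept 1 and 2 counts in culture. The proton-coupled carrier Slc36a2 (PAT2) had 0.741, 16.8, 7.32, 3.16 and 0.195 CPM in fresh and 0.0527, 0 and 0 CPM in cultured libraries. Its run-2 ratio was 98.6, with a counting interval of 17.0 to 3969 (adjusted p = 0.0411). The values of Slc36a2 differed widely among fresh libraries, and its call was lost without fresh replicate 2 (adjusted p = 0.0604), 3 (0.068) or 4 (0.363), or cultured replicate 2 (0.0836) or 3 (0.0829). Without cultured replicate 1 it was at least 22.1-fold lower, and without fresh replicate 5 the ratio was 183. Slc38a11 had 0.684, 4.41, 5.40, 4.11 and 0.717 CPM in fresh and 0, 0.0515 and 0.0510 CPM in cultured libraries. Its ratio was 70.7, with an interval of 18.9 to 595 (adjusted p = 0.0194). Without fresh replicate 4 the ratio was 20.8 and the call was lost (adjusted p = 0.106), as it was in run 2 alone (0.0527), and without fresh replicate 5 the ratio was 119.

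Fresh replicate 1 differed from the other run-1 fresh libraries in markers of other cells and in some low transcripts. Against the average of the other 2 run-1 fresh libraries, fresh replicate 1 had less of the pericyte markers (log2 ratio -2.97) and less of the Schwann cell markers (-1.88), whereas the muscle stem cell markers differed by 0.10. By the same measure, with 0.5 CPM added to each value, Slc36a2 differed by -3.34, Slc6a17 (not called in culture) by -2.40 and Slc38a11 by -2.19. In fresh replicate 1 these genes had 0.741, 2.22 and 0.684 CPM beside a pericyte sum of 279 CPM. In fresh replicate 4 they had 3.16, 0.758 and 4.11 CPM beside 1515 CPM. In fresh replicate 5 they had 0.195, 4.17 and 0.717 CPM beside 1352 CPM. In fresh replicate 2 they had 16.8, 8.68 and 4.41 CPM beside 2308 CPM. In fresh replicate 3 they had 7.32, 19.1 and 5.40 CPM beside 2053 CPM. For the abundant genes that fell, the measure was -0.24 for Slc7a8, 0.12 for Slc43a1, 0.59 for Slc43a2, -0.39 for Slc43a3 and -0.07 for Slc7a2. Among other low genes that fell, it was 0.86 for Slc6a12, 0.01 for Slc6a13, 0.21 for Slc7a15 and 0.19 for Slc7a4. It was -0.62 for Slc6a7 and -0.41 for Slc6a4. The fibro-adipogenic markers differed by only -0.39 in fresh replicate 1, and the immune markers by -1.40. All these ratios rest on that 1 library. The part of other cells in the lower levels of culture was not tested.

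**Figure D4:**
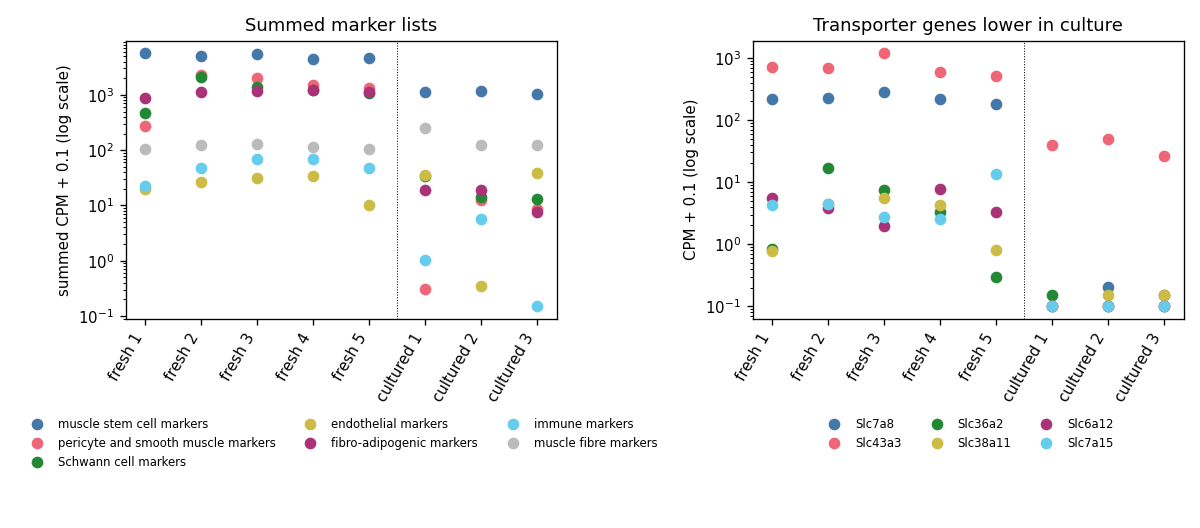
Summed CPM of the markers of 7 cell types (left) and CPM of 6 transporter genes called lower in culture (right) in each library (x axis), both plus 0.1 on a log axis (y). In fresh replicate 1 the pericyte sum is at 279 CPM, Slc36a2 at 0.741 CPM and Slc7a8 at 217 CPM, and in culture all 6 genes lie below every fresh library.

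The remaining tested genes were not called. Slc6a11 had no count in culture and 0 to 1.87 CPM in fresh libraries (adjusted p = 0.0524). Slc7a10, a light chain that carries small neutral amino acids, was at 5.30 CPM in cultured replicate 2 and at 0 in the other cultured libraries, and Slc6a20b was highest in the same library at 10.4 CPM (adjusted p = 0.821 and 0.307). Slc6a17, a neutral amino acid carrier known from neurons, had 2.22, 8.68, 19.1, 0.758 and 4.17 CPM in fresh and 0, 3.09 and 2.34 CPM in cultured libraries (adjusted p = 0.89). Slc6a2, Slc6a15, Slc6a19 and Slc36a1os were at 2.28 CPM or below in every library, with adjusted p-values of 0.0867 to 0.792. For Slc6a5 and Slc38a5, no run-2 library held a count, so culture could not be compared within that run. The 15 genes that were not tested were Slc1a1, Slc1a6, Slc1a7, Slc36a3, Slc38a8, Slc6a3, Slc6a14, Slc6a16, Slc6a18, Slc6a20a, Slc7a9, Slc7a12, Slc7a13, Slc6a19os and Slc36a3os, with mean levels of at most 1.25 CPM in either group. Of all 66 genes, 23 had no count in any cultured library, which at these depths allows a level of up to 0.0517 CPM. The 23 include genes that were not tested. Of the 51 tested ones, 8 were at 0 in culture with a bound. Another 3 were at 0 with too few run-2 fresh counts for a bound. Of all 19054 genes tested, 2378 had no count in culture.

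The order of levels changed with culture. In fresh cells Slc43a3 came first with 165 ± 59.4 CPM per kb (114 to 266), followed by Slc38a2 with 63.0 ± 11.3 (50.8 to 81.3), and the ranges of the 2 did not overlap. Next came Slc7a8 with 45.2 ± 7.55, Slc3a2 with 35.4 ± 11.6 and Slc7a2 with 29.5 ± 7.19 CPM per kb, and the range over libraries of each overlapped that of the next. In culture Slc7a5 came first with 86.5 ± 10.8 CPM per kb (75.2 to 96.7), followed by Slc6a6 with 59.1 ± 20.6 (40.0 to 80.9), whose range overlapped it. Slc38a2 with 48.4 ± 7.46, Slc1a5 with 41.4 ± 6.54 and Slc3a2 with 36.9 ± 5.23 CPM per kb came next, and each range overlapped that of the next gene. Over all 66 genes, summed levels were 2485 to 3674 CPM in fresh and 2160 to 2549 CPM in cultured libraries, and these ranges overlapped.

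Genes that act around these carriers were read from 3 lists. Of 28 genes of the amino acid response, the ATF4 programme induced by amino acid shortage, 27 were tested, 8 were higher and 5 lower. This was 48.1% of the list, beside 26.9% of all genes (8.87% higher and 18% lower), and its median log2 fold change was 0.97, beside -0.21. When fresh replicate 4 was left out 8 were called, and 7 without fresh replicate 5. Asns, asparagine synthetase, rose from 2.50 ± 1.46 to 57.3 ± 1.74 CPM (5.19 ± 1.38; adjusted p = 0.0235). Leaving out fresh replicate 4 gave a fold change of 4.24, leaving out fresh replicate 5 gave 13.00, a fitted value with no count left in the run-2 fresh cells, and it lost the call in run 2 alone (adjusted p = 0.0814). The serine synthesis enzyme Phgdh rose from 1.28 ± 0.744 to 31.9 ± 5.64 CPM (4.99 ± 0.82; adjusted p = 0.00361). The mitochondrial folate enzyme Mthfd2 rose from 5.58 ± 3.72 to 69.0 ± 38.5 CPM (4.94 ± 0.74; adjusted p = 0.00239), or by 5.55 without fresh replicate 4. The other higher genes were Psat1, Shmt2, Atf5 and Sesn2, at log2 fold changes of 2.41, 3.00, 1.74 and 1.83, and Trib3, which had 1 count in the run-2 fresh and 334 in the cultured libraries. Atf3, a stress-induced transcription factor, fell from 666 ± 99.3 to 5.88 ± 2.52 CPM (-6.65 ± 0.40; adjusted p = 4.84e-05), and Cebpb, Vldlr, Ppp1r15a and Herpud1 fell too, with log2 fold changes of -3.05, -2.91, -1.79 and -2.82. The synthesis enzymes Psph (adjusted p = 0.052), Aldh18a1 (adjusted p = 0.133), Pycr1 (adjusted p = 0.0965) and Cth (adjusted p = 0.445) were not called, and the log2 fold change of Cth was -0.97. Atf4 itself averaged 560.2 and 581 CPM in fresh and cultured libraries (adjusted p = 0.644).

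Of 38 genes that pass amino acid signals to mTORC1, 4 were higher and 3 lower, or 18.4% beside the 26.9% of all genes. The median log2 fold change was -0.12 in the list and -0.21 over all genes. The count of called genes was 3 without any one of fresh replicates 1 to 4 and 4 without fresh replicate 5. Sesn1, one of the sestrins that sense leucine, fell from 79.4 ± 7.97 to 0.890 ± 0.591 CPM (-6.49 ± 0.64; adjusted p = 0.000348), and Deptor, an inhibitor of mTOR, from 497 ± 53.1 to 48.1 ± 20.3 CPM (-3.36 ± 0.36; adjusted p = 0.000529). Castor2, named Gatsl2 in the table and a partner of the arginine sensor Castor1, fell from 53.4 ± 17.4 to 4.98 ± 5.88 CPM (-2.95 ± 0.92; adjusted p = 0.0428), and its call was lost without any one of the 5 fresh libraries or cultured replicate 2, in run 2 alone and with no scaling factors. Without cultured replicate 3 its fold change was -4.52. Lamtor1, a lysosomal anchor of mTORC1, rose from 12.3 ± 2.01 to 53.1 ± 40.6 CPM (2.18 ± 0.65; adjusted p = 0.0372). Its call was lost without any one of the 5 fresh libraries and in run 2 alone, and its fold change was 1.41 without cultured replicate 1. Rptor (1.46), Sec13 (1.37) and Sesn2 were the other higher genes, and most of the list, 31 of 38, was not called.

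Of 25 amino acid carriers outside these families, 22 were tested, 1 was higher and 3 lower. Called genes were thus 18.2% of these carriers and 26.9% of all genes, with median log2 fold changes of -0.19 and -0.21. The count of called genes was 2 without fresh replicate 5 and 8 without cultured replicate 1. Sfxn1, the mitochondrial serine carrier, rose from 16.1 ± 4.07 to 123 ± 41.7 CPM (2.73 ± 0.43; adjusted p = 0.0031). Slc16a10 (TAT1), a carrier of aromatic amino acids, fell from 43.7 ± 18.0 to 5.71 ± 5.02 CPM (-3.42 ± 0.70; adjusted p = 0.00777), or by 4.35 without cultured replicate 1. The mitochondrial carriers Slc25a18 and Slc25a2 were lower too, with 33 and 76 counts in the run-2 fresh and 1 and 0 counts in the cultured libraries, and 75 of the 76 were in fresh replicate 5.

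The fresh libraries of both runs were compared in the same model. None of the 51 tested genes of the transporter families was called between run 2 and run 1 by edgeR, with 11 at an unadjusted p under 0.05 and 1 called by DESeq2 (Slc7a11, above). Of all genes tested, 0.189% were called in this comparison. Because no cultured library was in run 1, the culture term rests on fresh replicates 4 and 5.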

How the data were processed

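RNA-seq libraries of 5 fresh and 3 cultured samples of sorted mouse muscle stem cells were analysed, with groups and runs taken from the labels. Per the labels' protocols, the RNA was isolated with a Qiagen kit and its cDNA amplified with NuGEN Ovation before Illumina library construction. The authors deposited 1 table of expected counts, the read numbers per gene that RSEM estimates. STAR, RSEM and mm10 are named per the submitters' processing notes, while no source used here gives their versions, the annotation or the use of strand. RSEM divides reads that fit several genes, so near-identical copies are uncertain, and 50.1% of values above 0 were not whole.

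The 92 ERCC lines were left out of 45798, and 2423 lines without an identifier (0.385 to 0.568% of counts) stayed in under their symbol. Counts were rounded, filtered by filterByExpr (19054 genes kept) and scaled by TMM (0.790 to 1.18). Tests were run in R 4.3.3 with edgeR 4.0.16 (quasi-likelihood), with run and culture as terms, with 5 residual degrees of freedom and Benjamini-Hochberg adjustment over all genes tested at 0.05. A standard error is the fold change over the root of the F statistic and is approximate. For genes at 0 in culture, the fold is a bound against 3 counts over the cultured libraries, relative to the run-2 fresh mean, and for 1 to 3 counts a ratio with a 95% interval. These intervals and bounds cover counting error only. All pairs of libraries differed by more than sampling noise. Coordinates and exon lengths (the union of exons) are from GENCODE M21, which 98.8% of identifiers matched, and promoters are from RefSeq (GRCm38.p6). The test was checked on simulated data.

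Genes given in full were those called with a mean of at least 10 CPM in a group and 14 fixed genes. The other called genes are given with their levels, except 1 that is counted but not reported here, and each further list gave at most 4 called genes of at least 10 CPM, ranked by size of change. Genes that complete a count, and uncalled genes given with values, were chosen after their values were seen, as were the shares and the motif. The gene families, lists and settings were chosen with earlier results of these data known. Alternatives were RLE scaling, no scaling, DESeq2 1.42.0, no filter, no run term, each run's fresh libraries alone, a replicate block and leaving out each library.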

Additional observations from a re-analysis of the deposited data

Results flagged for a closer look

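Of 38 named genes tested for a fresh library far from the other 4, 4 stood out, and chance gives about 1 in 20 such groups. Slc7a15 was at 13.5 CPM in fresh replicate 5 and at 2.46 to 4.34 CPM in the other fresh libraries. Slc3a1 was at 13.4 CPM in fresh replicate 5 against 1.80 to 2.65 CPM in the others. Asns was at 0 in fresh replicate 4 against 2.76 to 3.82 CPM in the others. Phgdh was at 2.60 CPM in fresh replicate 2 against 0.900 to 1.07 CPM in the others.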

How the results depend on the processing

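Over 16 alternatives, the 21 called genes gave 331 values, of which 301 kept direction and call, 30 kept the direction but lost the call, and 0 reversed. In run 2 alone, 9 members of the transporter families were lower (15 with all libraries). Of the 16241 genes tested there, 1013 were higher and 1767 lower. In the same setting, 7 amino acid response genes, 3 mTORC1 genes and 2 other carriers were called. DESeq2 called 11 mTORC1 genes between cultured and fresh libraries. Between the fresh runs it called 1 transporter gene. Leaving out 1 library gave 4 to 7 transporter genes higher and 11 to 17 lower, 896 to 2198 of all genes higher and 2441 to 3965 lower, 7 to 15 amino acid response genes, 3 to 8 mTORC1 genes and 2 to 8 other carriers.

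Replicate numbers do not pair the libraries by the labels, and the deviations of same-numbered fresh and cultured libraries correlated by 0.021, 0.0098 and 0.0050, so the numbers were not taken as pairs. Fresh replicate 3 correlated best with cultured replicate 2. With the replicate block, which sets cultured against run-1 fresh libraries, 4 transporter genes were higher and 5 lower. Those 9 are the genes whose call held in all settings, so the other called genes of the families lost theirs with the block. Of all genes, 1081 were higher and 1401 lower with the block, and 3 mTORC1 genes and 2 other carriers were called.

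Within the families, every direction that reversed was of an uncalled gene. Slc3a2 (0.59) was -0.14 against run-1 fresh libraries and -0.20 with the block. Slc6a8 (0.18) was -0.053 with no run term, -0.11 against run-1 fresh libraries, -0.35 with the block and, with 1 library left out, -0.25 (without cultured replicate 3) to 0.58. Slc3a1 (0.59) was -4.34 with the block and, with 1 library left out, -10.10 (without cultured replicate 2) to 2.23, with -0.07 without fresh replicate 4. Slc36a1 (0.74) was -0.0088 with the block, and Slc38a2 (-0.37) was 0.065 with no scaling factors. Other uncalled genes of the families also reversed in some settings. With the block, Slc7a14 (5.48) was -1.01 and Slc6a20b (1.85) was -0.50. With no run term, Slc6a15 (2.36) was -0.98, Slc7a7 (0.56) was -1.38 and Slc7a3 (1.20) was -0.62. Slc38a4 (0.53) was -0.91 without cultured replicate 3. These are examples, not all such genes. The cause was not tested. At these depths, a transcript with no count in culture may still be present at up to 0.0517 CPM.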
